A study of Mus musculus with 4 samples.

Results

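The genes of the secretory pathway and of the unfolded protein response were examined for H3K4 chromatin immunoprecipitation sequencing (ChIP-seq) signal at their promoters in activated mouse B cells with and without PA1. The set is a fixed list of 42 genes, taken by name from the GENCODE vM1 annotation of mm9. Of these, 41 are among its 22367 protein-coding genes, and all 41 were among the 12186 promoters with at least 50 reads in both libraries together, the minimum for a comparison. Spcs3, a signal peptidase subunit, is annotated there as a processed transcript and was counted apart. The groups were 1 library of PA1-knockout (PA1-KO) and 1 of wild-type (PA1-WT) splenic B cells, taken by depletion with antibody to CD43 from mice aged 6 to 14 weeks and cultured for 2 days. The medium held LPS (25 µg/ml) and 1 further stimulus, IL-4 (5 ng/ml) or anti-IgD on dextran (2.5 ng/ml), and the labels do not say which, nor how PA1 was deleted, nor which methylation state of H3K4 the antibody recognised. The series has 4 samples, and the rest, whose titles name LPS-dex, were not analysed here. Because each genotype has a single library, differences between genotypes have no replicate check and were not tested. Each ratio is PA1-KO over PA1-WT and compares only these libraries, and the range after it is its 95% interval, which covers counting error.

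Proteins destined for secretion enter the endoplasmic reticulum (ER) through the Sec61 channel, fold there with chaperones and disulfide isomerases, and leave in COPII-coated vesicles. When unfolded proteins accumulate, the sensors IRE1 (Ern1), PERK (Eif2ak3) and ATF6 raise the transcription of chaperone and degradation genes, in part through the ER stress response element (ERSE), which the factors NF-Y and ATF6 bind. B cells activated by LPS can become antibody-secreting cells, which depend on this machinery. Methylation of H3K4 marks active promoters and enhancers, and PA1 belongs to the MLL3 and MLL4 methyltransferase complexes, where it binds PTIP.

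Nuclear reads numbered 5259995 in PA1-KO and 5539475 in PA1-WT. Reads were counted within 1 kb of the transcription start site (TSS) and are also given as normalized RPM, reads per 1000000 after TMM scaling (trimmed mean of M values). The promoter of PA1 itself (annotated as 2900092E17Rik) held 114 reads in PA1-KO and 261 in PA1-WT (ratio 0.498, interval 0.396 to 0.624), but the labels do not say where the allele was cut, so this does not test the genotype. Of 10 B cell markers, 10 were marked in both libraries, with 376 or more knockout reads each, while 8 T and NK cell markers had medians of 1 and 2 reads. The 5 plasma cell markers, which come from the cells with the most active secretory pathway, summed to 320 normalized RPM in the knockout library and 288 in the wild type. Unscaled, these sums were 1615 and 1659 reads, so their order depends on the scaling. Among them Igj was at a ratio of 3.25 (2.43 to 4.39), Prdm1 at 1.36 (1.17 to 1.60) and Sdc1 at 0.724 (0.597 to 0.877). Irf4 was at 0.929 (0.822 to 1.05) and Xbp1 at 1.12 (0.975 to 1.28). The part of these genes' cells in the results below was not tested, and in bulk chromatin a change in the number of marked cells and a change in the mark per cell cannot be told apart.

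Motifs were searched in the window from 250 bases before to 50 bases after the TSS. Relative to its share of all promoters, the ERSE had the highest share of members, 17.1% against 0.115%. In percentage points CCAAT alone differed more, at 73.2% of members and 35.5% of all promoters. The ERSE is the element described above for chaperone genes, so its presence at members is a description and no independent result. It was 1 of 6 motifs searched on both strands and reads CCAAT, any 9 bases, then CCACG. Of the 41 members 7 held it, against 14 of the 12186 promoters compared (0.115%), so that 50% of all its holders were members. Hsp90b1 held 2 copies, at bases -147 to -129 and -42 to -24 from the TSS. The 7 stretches follow, 5′ to 3′ in the direction of transcription, from the NCBIM37 (mm9) genome, with the outer pentamers of each ERSE in capitals (CGTGG and ATTGG where the element lies on the other strand). Each shows up to 200 bases before the TSS that lie in no annotated exon. The Hspa5 element lies in an exon of a transcript that starts further upstream and is shown with 5 bases on either side.
Hspa5, chr2:34627540-34627568, plus strand: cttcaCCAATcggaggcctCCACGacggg
Hsp90b1, chr10:86168255-86168454, minus strand: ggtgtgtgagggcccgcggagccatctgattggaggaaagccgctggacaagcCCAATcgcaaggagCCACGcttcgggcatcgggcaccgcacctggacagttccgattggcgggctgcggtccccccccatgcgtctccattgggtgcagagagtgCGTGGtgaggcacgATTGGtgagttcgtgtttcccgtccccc
Canx, chr11:50139176-50139375, minus strand: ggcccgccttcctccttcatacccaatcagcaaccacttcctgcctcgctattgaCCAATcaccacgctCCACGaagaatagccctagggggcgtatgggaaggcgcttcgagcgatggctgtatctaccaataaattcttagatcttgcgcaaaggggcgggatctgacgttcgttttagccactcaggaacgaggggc
Pdia6, chr12:17273214-17273350, plus strand: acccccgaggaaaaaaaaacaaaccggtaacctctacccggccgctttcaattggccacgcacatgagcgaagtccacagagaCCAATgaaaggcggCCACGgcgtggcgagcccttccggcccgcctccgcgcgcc
Creld2, chr15:88649876-88650075, plus strand: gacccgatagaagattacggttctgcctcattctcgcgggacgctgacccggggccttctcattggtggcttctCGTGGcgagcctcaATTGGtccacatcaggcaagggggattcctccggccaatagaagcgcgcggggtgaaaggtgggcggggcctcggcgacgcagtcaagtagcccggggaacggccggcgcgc
Dnajc3, chr14:119336954-119337153, plus strand: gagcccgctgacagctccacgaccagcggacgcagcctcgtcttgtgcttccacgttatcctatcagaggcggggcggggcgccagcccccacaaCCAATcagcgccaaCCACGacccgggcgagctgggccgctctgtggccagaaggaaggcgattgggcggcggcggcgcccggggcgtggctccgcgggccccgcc
Derl3, chr10:75355943-75356142, plus strand: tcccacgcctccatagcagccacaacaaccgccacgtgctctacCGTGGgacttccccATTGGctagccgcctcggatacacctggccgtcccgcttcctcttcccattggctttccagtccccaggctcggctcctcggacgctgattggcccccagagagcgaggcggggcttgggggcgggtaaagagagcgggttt
The 34 members without the element ranged from the lowest ratio of the set to nearly the highest, and the stretches of both ends are shown for comparison, with no capitals because no match lies in them.
Sdf2l1, chr16:17132477-17132676, minus strand: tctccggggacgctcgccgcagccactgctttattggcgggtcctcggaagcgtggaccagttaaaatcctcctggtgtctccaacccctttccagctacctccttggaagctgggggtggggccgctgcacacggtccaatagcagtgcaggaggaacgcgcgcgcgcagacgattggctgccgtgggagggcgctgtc
Spcs2, chr7:107007404-107007603, minus strand: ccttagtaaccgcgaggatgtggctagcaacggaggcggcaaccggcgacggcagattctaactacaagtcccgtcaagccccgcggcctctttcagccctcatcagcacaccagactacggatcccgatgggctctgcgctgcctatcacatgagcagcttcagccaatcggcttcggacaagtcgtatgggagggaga

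The ERSE lay in a stretch with few H3K4 reads. Whether nucleosomes were absent there, unmarked or not mapped was not tested. In the 200 bases before the TSS, the 7 promoters with the element held 0 to 3 reads each from both libraries together and 5 reads in sum, against a median of 18 for all promoters compared. Over all 41 members the median was 4 reads, and 22 of them held at most 5 reads there, as did 23.7% of all promoters compared. Creld2, Canx, Dnajc3 and Pdia6 held 0 reads in this stretch. Signal on either side of this stretch differed among the 7 promoters with the element. In the next 200 bases upstream they held from 5 reads (Derl3) to 123 (Hsp90b1). In the first 200 bases from the TSS onward they held from 13 reads (Creld2) to 114 (Hspa5). A shorter relative, ERSE-II (ATTGG, any 1 base, then CCACG), was present in 3 members, Dnajb11, Hyou1 and Manf, and in 8 of all promoters compared (0.0656%). The sequence TGACGTG, part of the element bound by XBP1 and ATF6, was in 5 members, Hspa5, Sec24d, Sec61a1, Ssr4 and Syvn1, and in 2.75% of all promoters. CCAAT alone was in 30 members and in 35.5% of all promoters. It is contained in the ERSE, and ATTGG is its reverse complement. CCACG alone was in 29 members and in 50.4% of all promoters, and TATAAA in 3 members, Atf4, Calr and P4hb, and in 5.12% of all. A match is a description of the sequence only.

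**Figure D1:**
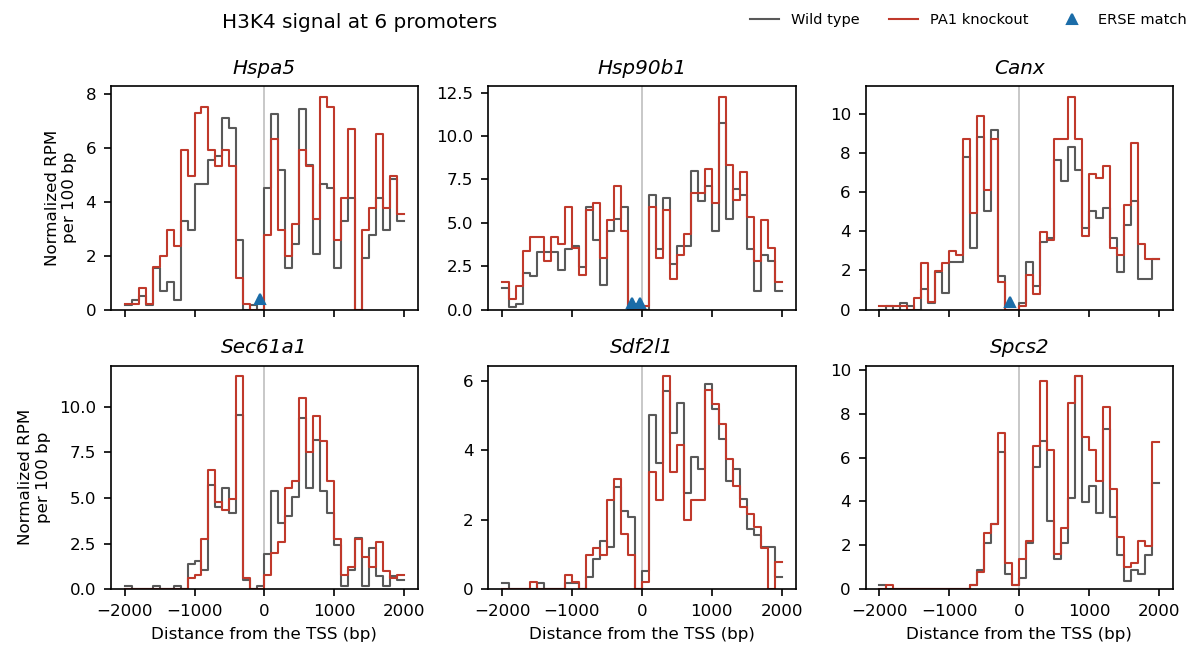
H3K4 signal in normalized RPM per 100 bp bin against the distance from the TSS, in the direction of transcription, at 6 promoters, with 1 line per library and triangles at ERSE matches. The gap just upstream of the TSS holds 3 reads at Hsp90b1, 1 at Hspa5 and 0 at Canx, and the knockout line lies under the wild-type line next to the Sec61a1 and Sdf2l1 TSSs.

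The promoters of the pathway were strongly marked in both libraries and none was called as differing between them. Their median was 715 reads in both libraries together, against 462 for all promoters compared, and 35 of 41 lay in the upper 50% of all promoters by reads. In normalized RPM the members ran from 25.8 to 89.3 in the wild type (median 60.2) and from 25.7 to 102 in the knockout (median 70.9). A call, higher or lower, needed a change of 1.5-fold or more and an interval clear of 1. By this rule 0 members were higher and 0 lower, against 0.665% and 4.9% of all promoters compared, and 0 were called under each of the 11 other settings tried. Calls of lower were concentrated at weakly marked promoters. They made up 17.3% of all promoters with 50 to 300 reads, where 1 member lay. At 300 to 500 reads, with 6 members, the share was 0.845%. With 500 to 700, 700 to 900 and 900 or more reads it was 0%, and these bands held 12, 13 and 9 members. At the members' level, 0 lower was thus the usual share. The members nearest to the threshold were Derl3, Spcs2 and Pdia4 above 1 and Sdf2l1, Ern1 and Creld2 below it.

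The members' ratios lay slightly above those of promoters at large. Their median log2 ratio was 0.15, against 0.00 for all promoters compared, and 35 of 41 ratios were over 1, against 50.2% of all, but only 6 of 41 were over 1 when libraries were scaled to reads outside enriched regions (background), against 6.25% of all. The interval lay above 1 for 12 members, against 10.1% of all promoters, and below 1 for 0, against 11.4%. Scaled to background these counts were 0 and 13, against 0.443% and 55.9% of all promoters. The members' median relative to that of all promoters, which does not move with the scaling, was 0.15 on each of the 3 scales and from 0.057 to 0.22 over the other settings. Spcs3, outside the protein-coding set, held 224 reads in PA1-KO and 254 in PA1-WT (ratio 1.01, interval 0.837 to 1.21).

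**Figure D2:**
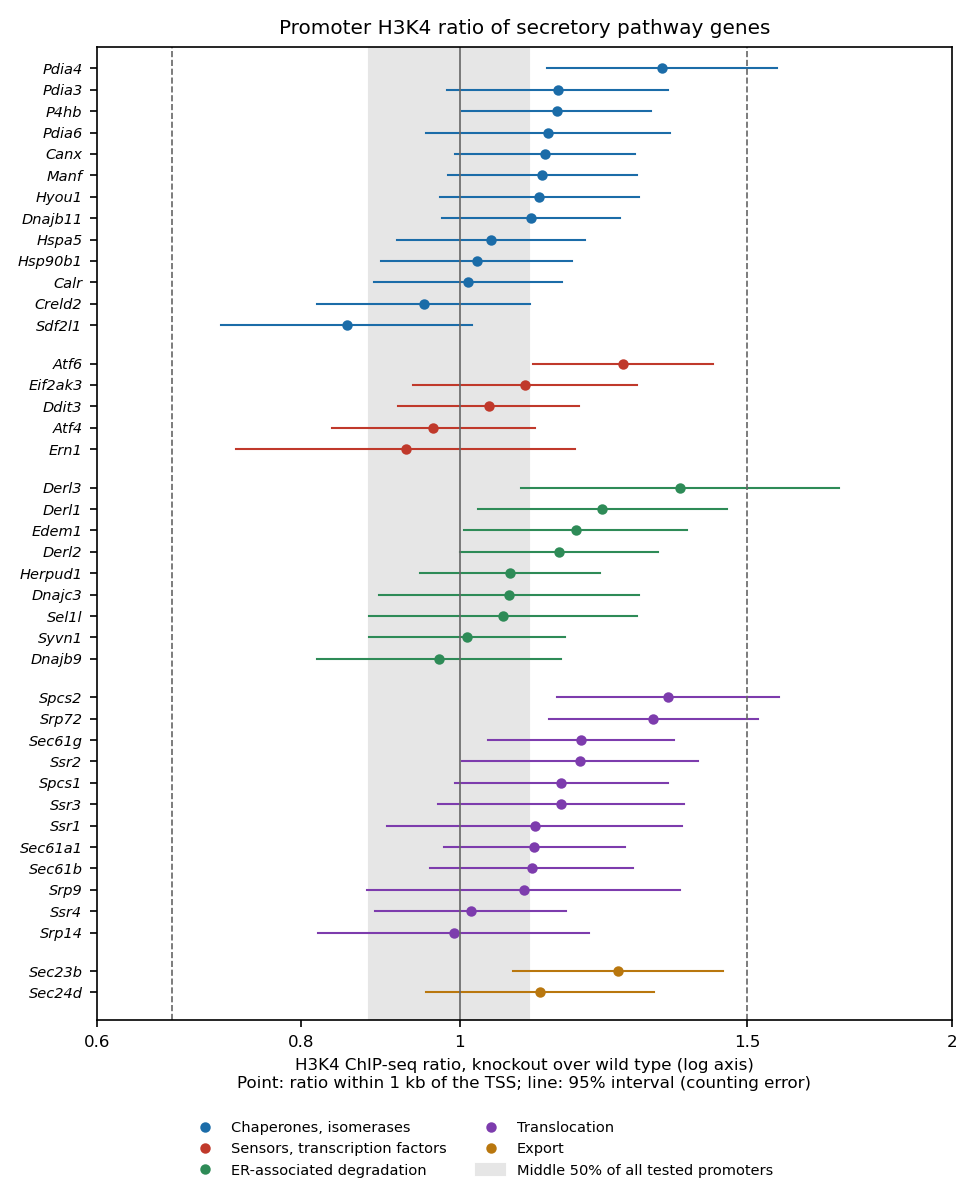
Ratio of knockout to wild-type H3K4 reads within 1 kb of the TSS (log axis) for the 41 members grouped by role, with 95% intervals for counting error, the 1.5-fold thresholds (dashed) and the middle 50% of all promoters compared (grey). All 41 points lie between the dashed lines, from 0.853 at Sdf2l1 to 1.36 at Derl3.

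The ER chaperones and disulfide isomerases were the most strongly marked role, with a median of 888 reads, and their median ratio was 1.12 over 13 genes. Hspa5, which encodes the Hsp70 chaperone BiP, held 435 reads in PA1-KO and 475 in PA1-WT (86.1 and 82.4 normalized RPM), giving a ratio of 1.05 with an interval of 0.916 to 1.19. Hsp90b1, the ER member of the Hsp90 family, held 420 and 468 reads (ratio 1.02, interval 0.896 to 1.17). Both intervals included 1 with TMM scaling, but scaled to background they lay below it, at 0.844 (0.739 to 0.963) for Hspa5 and 0.827 (0.723 to 0.946) for Hsp90b1. Dnajb11, a co-chaperone of BiP, had the most reads of the role and of the whole set, 495 and 511 (98.0 and 88.6 normalized RPM), at a ratio of 1.11 (0.975 to 1.25). Sdf2l1, which acts with Dnajb11, had the fewest reads of the role and the lowest ratio of the set, with 225 and 301 reads (44.5 and 52.2 normalized RPM), giving a ratio of 0.853 with an interval of 0.715 to 1.02. The intervals of this pair overlapped. Creld2, an ER stress-induced gene, was the other member of the role below 1, at 0.951 (0.818 to 1.10). The lectin chaperones Calr and Canx were at 1.01 and 1.13. Among the disulfide isomerases, Pdia4 had the highest ratio, with 332 and 285 reads (ratio 1.33, interval 1.13 to 1.56), and the interval of P4hb (ratio 1.15) also lay above 1. The intervals of Pdia3 and Pdia6 included 1. Scaled to background, Pdia4 was the 1 gene of the 13 over 1, at 1.07 (0.914 to 1.26), and the intervals of Calr, Creld2 and Sdf2l1 also lay below 1.

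The sensors and transcription factors of the unfolded protein response spread on both sides of 1, with a median ratio of 1.04 over 5 genes. Ern1, whose product IRE1 splices the Xbp1 mRNA, was the most weakly marked member of the set, with 130 reads in PA1-KO and 160 in PA1-WT (25.7 and 27.7 normalized RPM), giving a ratio of 0.927 with an interval of 0.730 to 1.18. Eif2ak3, the kinase PERK, held 317 and 330 reads (ratio 1.10, interval 0.937 to 1.28). Atf6 was the only one of the sensors whose interval excluded 1, with 515 and 467 reads (102 and 81.0 normalized RPM), giving a ratio of 1.26 with an interval of 1.11 to 1.43. It also had the lowest GC content of the set, 44.9%. Scaled to background, Atf6 was at 1.02. Atf4, which is translated when PERK is active, was at 0.964 (0.835 to 1.11), and its target Ddit3, the factor CHOP, had the most reads of the role, 470 and 515 (ratio 1.04, interval 0.917 to 1.18). Scaled to background, the intervals of Atf4 (0.778), Ddit3 (0.841) and Ern1 (0.749) lay below 1, and that of Eif2ak3 (0.885) included 1. On that scale the interval lay below 1 at 55.9% of all promoters.

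Among the 9 genes of ER-associated degradation and other stress-induced factors, Derl3 and Derl1, which encode Derlin components of the retrotranslocation machinery, had the highest ratios. Derl3 held 178 reads in PA1-KO and 149 in PA1-WT (35.2 and 25.8 normalized RPM), giving a ratio of 1.36 with an interval of 1.09 to 1.71, the highest of the set and on the fewest reads of this role. Derl1 was at 1.22 (1.03 to 1.46) and Derl2 at 1.15, with an interval just above 1. Edem1, which recognises misfolded glycoproteins, was at 1.18 (1.01 to 1.38). Scaled to background these turned to 1.10 for Derl3, 0.987 for Derl1, 0.928 for Derl2 and 0.951 for Edem1. Sel1l and Syvn1, which form the HRD1 ubiquitin ligase, were at 1.06 and 1.01. Herpud1, a stress-induced partner of that ligase, had the most reads, 475 and 505 (ratio 1.07, interval 0.945 to 1.22). Dnajb9, a co-chaperone that restrains IRE1, was lowest in the role at 0.972 (0.818 to 1.15).

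The genes of translocation into the ER had 11 of 12 ratios over 1 and a median ratio of 1.13, but 2 of the 12 were over 1 when scaled to background. Sec61a1, the channel subunit, had the most reads of the role, 479 in PA1-KO and 492 in PA1-WT (94.8 and 85.3 normalized RPM), at a ratio of 1.11 with an interval of 0.978 to 1.26. Its partners Sec61b and Sec61g were at 1.11 (0.960 to 1.28) and 1.19 (1.04 to 1.35). Spcs2, a signal peptidase subunit, had the highest ratio, with 356 and 303 reads (70.5 and 52.5 normalized RPM), giving a ratio of 1.34 with an interval of 1.15 to 1.57. Srp72, of the signal recognition particle, followed at 1.31 (1.13 to 1.52), whereas Srp14 of the same particle was lowest, at 0.992 (0.819 to 1.20). The intervals of Srp72 and Srp14 overlapped. Srp9 had the fewest reads, 163 and 170 (ratio 1.09, interval 0.877 to 1.36). The 4 genes of the translocon-associated complex, Ssr1 to Ssr4, ran from 1.02 at Ssr4 to 1.19 at Ssr2. The COPII coat genes of export from the ER were Sec23b, at 1.25 (1.08 to 1.45) with 380 and 347 reads, and Sec24d, at 1.12 (0.953 to 1.31) with 307 and 313 reads.

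Ratios were lower at promoters of higher GC content, as they were across all promoters. Over the 41 members, GC content within 1 kb of the TSS and the log2 ratio had a Pearson r of -0.56 and a Spearman rho of -0.54, and over all promoters compared they had -0.45 and -0.52. These are correlations across genes that share both libraries, and genes are not independent replicates. The 7 members with 45 to 50% GC had a median log2 ratio of 0.29, against 0.14 for all promoters in that band. The 20 members with 55 to 60% GC had 0.10, against -0.08. The 11 members in between had 0.17, against 0.04. Reads per promoter had an r of 0.02 with the log2 ratio in the members and 0.43 over all promoters. The members spanned only 290 to 1006 reads, against 50 to 1463 for all, so these values are not directly comparable. With 50 to 300 reads, where 1 member lay, the median log2 ratio of all promoters was -0.26. With the level trend alone removed, the median log2 ratio was 0.076 for members and 0.0024 for all promoters. In the members' most filled level band, 700 to 900 reads, the median was 0.16 for the 13 members and 0.09 for all promoters. With the trends over level and GC both removed, the members' median relative to all promoters was 0.093. The interval then lay above 1 for 5 members, against 4.78% of all promoters.

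**Figure D3:**
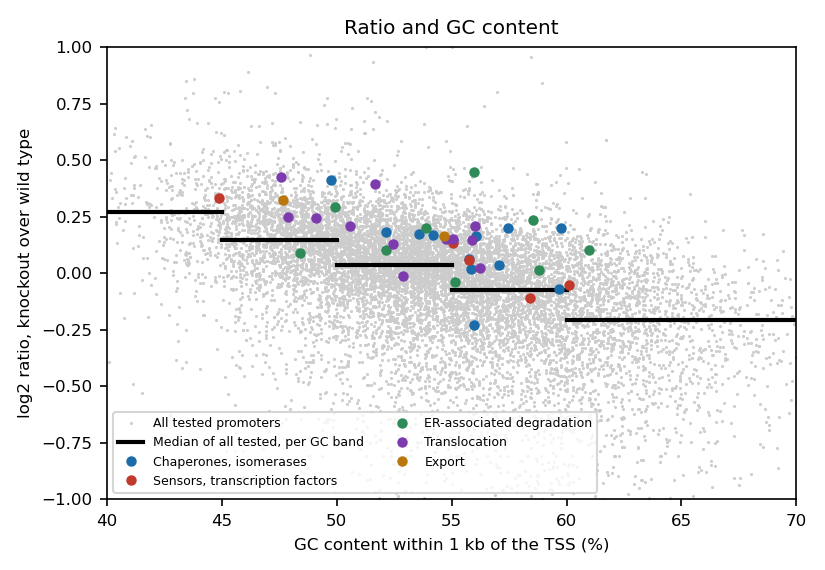
Log2 ratio of knockout to wild type against GC content within 1 kb of the TSS for members coloured by role, all promoters compared (grey, with 310 outside the axes) and the median of all promoters per GC band (black bars). The black bars step down with GC content, and Spcs2 (47.6% GC) lies at 0.42 and Sdf2l1 (56.0% GC) at -0.23, while Derl3, with as much GC as Sdf2l1, lies at 0.45.

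The difference between the libraries at these genes depended on the distance from the TSS. The bands described next were chosen after the average profile was seen. Within 300 bp of the TSS the members' median ratio was 0.842, and 10 of the 39 members with at least 50 reads there (25.6%) were over 1, close to the 27.1% of all promoters. At 1001 to 2000 bp downstream it was 1.38, with 36 of 38 over 1, against 71.5% of all. Upstream, the median ratio was 1.13 at 301 to 1000 bp and 1.36 at 1001 to 2000 bp. Scaled to background the core stayed below 1, at 0.680, and the bands at 1001 to 2000 bp above it, at 1.10 upstream and 1.11 downstream, the latter with 28 of 38 over 1. The bands at 301 to 1000 bp turned with that scaling, to 0.914 upstream and from 1.20 to 0.966 downstream. All promoters showed the same order, with median ratios of 0.888 within 300 bp and 1.17 at 1001 to 2000 bp downstream. Scaled to background, the median of all promoters was 0.717 within 300 bp and fell below 1 in the outer bands, to 0.912 upstream and 0.944 downstream, with 40.9% over 1 downstream.

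**Figure D4:**
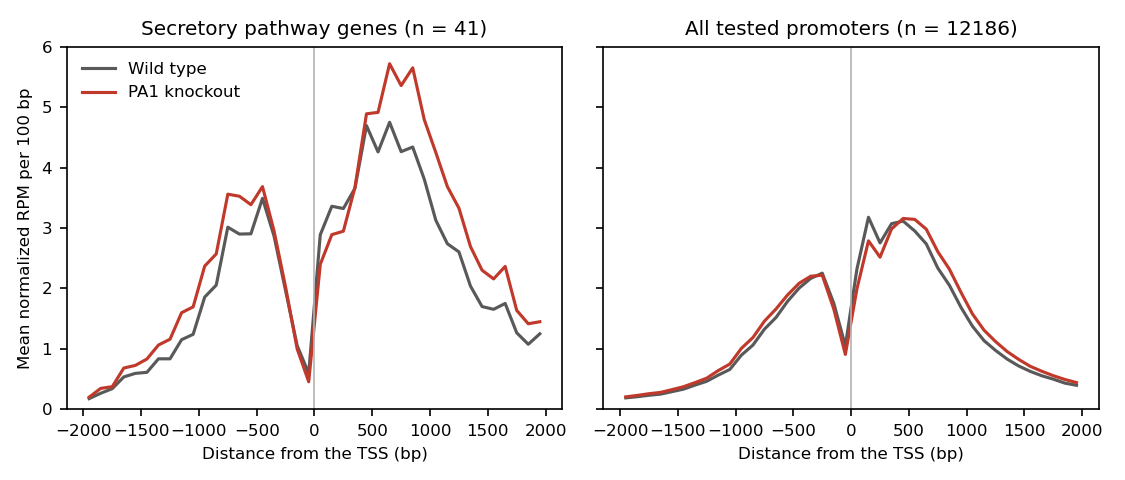
Mean normalized RPM per 100 bp bin against the distance from the TSS in the knockout and wild-type libraries, for the 41 members (left) and the 12186 promoters compared (right). In both panels the knockout line is below the wild-type line just downstream of the TSS and above it beyond about 500 bp.

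Setting the flanks (1001 to 2000 bp on both sides) against the core (within 300 bp) in each gene gives a contrast that no library scaling can move. Of 41 members 38 had at least 50 reads in each. Their median log2 difference, flank ratio minus core ratio, was 0.70, against 0.34 for all 5637 promoters with as many reads, and it was over 0 in 35 of the 38, against 76.7% of all. The interval lay above 0 for 23 of the 38, against 24.2% of all promoters, and below 0 for 0, against 1.61% of all. Sel1l held 33 reads in the PA1-KO core and 56 in the PA1-WT core, but 96 and 61 in the flanks, a log2 difference of 1.40 (0.63 to 2.17). Sec61g, with 91 and 119 core reads and 72 and 38 flank reads, was at 1.30 (0.61 to 1.99). Hspa5 held 62 and 99 core reads and 304 and 232 flank reads, at 1.06 (0.54 to 1.58). In these 3 genes the libraries thus changed order between core and flanks. Ddit3 did not show this, with 141 and 136 core reads, 180 and 193 flank reads and a difference of -0.15 (-0.60 to 0.30), and Atf6 was at 0.03. The members also had more reads in the flanks, a median of 300 against 169. Among promoters with 200 or more flank reads, the median was 0.67 for 25 members and 0.34 for all. GC content moved with this contrast. The members' cores had a median of 65.1% GC and their flanks 43.3%, a step of 21.6 points, against 18.3 points for all promoters. Where the step was at least 20 points the median difference was 0.79 for 22 members and 0.60 for all promoters, and where it was under 10 points it was 0.00 for 3 members and 0.00 for all. The part of GC content in the contrast was not tested. Background reads, divided by the full length of the chromosomes, averaged 0.492 per kb in the knockout library and 0.453 in the wild type. The members' outer downstream band of 1 kb held a median of 201 reads in both together. The part of background in the contrast was not tested.

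**Figure D5:**
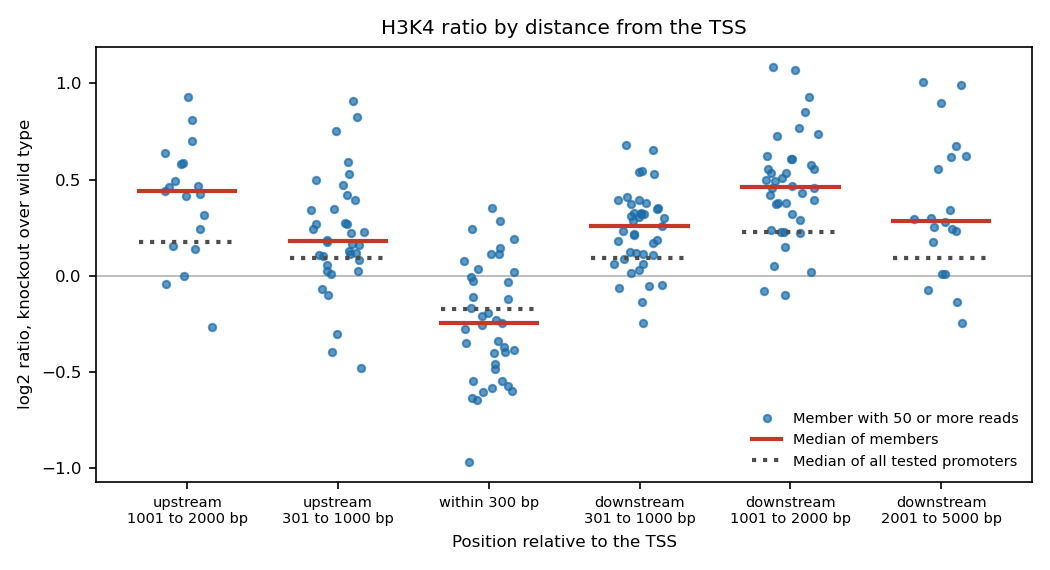
Log2 ratio of knockout to wild type in 6 bands of distance from the TSS, with 1 point per member with at least 50 reads in the band, the members' median (solid bar) and the median of all promoters with as many reads (dotted bar). The members' median ratio is 0.842 within 300 bp and 1.38 at 1001 to 2000 bp downstream.

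In the core, 4 members were called lower and 0 higher, against 7.82% and 0.707% of all promoters with enough reads there. Sec61a1 held 30 reads in PA1-KO and 67 in PA1-WT within 300 bp (ratio 0.511, interval 0.321 to 0.797), although its whole promoter window was at 1.11. Atf4 held 47 and 84 reads (ratio 0.639, interval 0.437 to 0.923). The others were Sdf2l1 at 0.644 (0.434 to 0.943) and Calr at 0.657 (0.460 to 0.932). All 4 were also called with total-read and background scaling, which called 8 and 16 of the 39 members lower in the core, against 14.2% and 32.8% of all promoters. Hspa5, at 62 and 99 reads, was lower only on those scales.

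In the outer downstream band, 9 of 38 members were called higher and 0 lower, against 13.6% and 3.31% of all promoters with enough reads there. The 9 came from each role except the sensors and the export genes. Sec61g held 67 reads in PA1-KO and 36 in PA1-WT (13.3 and 6.24 normalized RPM), giving a ratio of 2.12 with an interval of 1.40 to 3.28, and Sec61b held 81 and 44 reads (ratio 2.10, interval 1.44 to 3.11). These 2 were called on each of the 3 scales. Sel1l was at 1.81 (1.29 to 2.54), Derl1 at 1.71 (1.30 to 2.25), Pdia3 at 1.67 (1.31 to 2.13) and Dnajb9 at 1.66 (1.21 to 2.27), and these 4 were called with TMM and total-read scaling but not with background scaling. Ssr2, Srp9 and Herpud1, at 1.90, 1.54 and 1.52, were called with TMM scaling alone. In the outer upstream band 3 of 19 members were higher and 0 lower, against 11% and 2.78% of all. Of these Hspa5, at 107 and 64 reads (ratio 1.91, interval 1.39 to 2.64), was called on each scale, and Canx (1.75) and Manf (1.63) with TMM scaling only. Closer in, at 301 to 1000 bp upstream, Derl3 (1.88), Sec61g (1.77) and Derl2 (1.68) were higher, 3 of 36 with 0 lower, against 4.86% and 2.34% of all. A TSS of Mis12 lay in that Derl2 band or within 300 bp of it. At 301 to 1000 bp downstream, Spcs1 (1.60) and Sec23b (1.57) were higher, 2 of 41 with 0 lower, against 3.75% and 3.87% of all. None of these 5 was called higher with background scaling. That scaling called 0 members higher and 2 lower at 301 to 1000 bp upstream, Ern1 and Spcs1, against 0.604% and 12.2% of all promoters.

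Several members carried broad marked domains. An enriched region overlapped the promoter window in 41 of 41 members and in 12150 of the 12186 promoters compared. Its median length was 3600 bp in the members and 2000 bp in all. The members also held more reads, a median of 715 against 462, and lengths at promoters of like level were not compared. The longest was at Edem1, 12400 bp, followed by Hsp90b1 at 8600 bp, Pdia4 at 8400 bp, Atf6 at 8000 bp and Hspa5 at 7600 bp. From 2001 to 5000 bp downstream, 6 of 20 members were higher and 0 lower, against 11% and 6.63% of all promoters with enough reads. Edem1 (chromosome 6, TSS 108778635) held 380 reads in PA1-KO and 216 in PA1-WT there (75.2 and 37.5 normalized RPM), giving a ratio of 2.01 with an interval of 1.69 to 2.38, and was called on each of the 3 scales. Ern1 was at 1.99 (1.21 to 3.32) and was called with TMM and total-read scaling. Hsp90b1 held 343 and 254 reads (ratio 1.54, interval 1.31 to 1.82), and Pdia4 held 409 and 304 reads (ratio 1.54, interval 1.32 to 1.79). With Derl2 (1.86) and Derl1 (1.59), these were called with TMM scaling only. At Edem1, Ern1, Hsp90b1 and Pdia4 no TSS of another protein-coding gene lay in this band or within 300 bp of it.

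Alternative start sites and neighbours bear on which gene a read belongs to. Of the 41 members, 16 had annotated TSSs over 2 kb from the one used, 33 in all, and 4 of these sites held 50 or more reads. Those of Hsp90b1, 2416 and 3541 bp downstream, were at 1.53 (1.28 to 1.83) and 1.55 (1.26 to 1.91), while its main promoter was at 1.02. Their windows overlap each other and the domain described above. A Hspa5 site 2752 bp downstream was at 1.24 (1.05 to 1.47). The remaining one, of Sec61a1, held 24 and 26 reads. In 9 members the promoter window held the TSS of another protein-coding gene: Alg12 at Creld2, Tbccd1 at Dnajb11, BC030307 at Hsp90b1, Catsper2 at Pdia3, Mis12 at Derl2, Alg2 at Sec61b, Glt8d1 at Spcs1, Xrra1 at Spcs2 and Idh3g at Ssr4. At Derl2 the upstream side was at 1.37 (1.15 to 1.62) and the downstream side at 0.826 (0.646 to 1.05). Annotated TSSs of Mis12 lay on both sides of the Derl2 TSS, so the sides do not separate the genes. At Spcs1 the order was the reverse, 0.814 upstream and 1.40 (1.16 to 1.70) downstream. The median ratio of these 9 was 1.11, and that of the other 32 was 1.12.

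The wider pathway gave a similar picture. Of 96 further genes of these processes that are not in the set, 92 had enough reads, and 0 were called higher and 1 lower, against 0.665% and 4.9% of all promoters. Sec62, a translocation factor, was that gene, with 118 reads in PA1-KO and 203 in PA1-WT (ratio 0.663, interval 0.524 to 0.836). It was not called with a 500 bp window, a 2 kb window, the most upstream TSS, a minimum of 20 reads, or any trend removed. The 92 genes had a median of 564.5 reads, and 0% of all promoters with 500 to 700 reads were called lower. Their median log2 ratio was 0.10. By list it was 0.15 for degradation, 0.12 for folding, 0.10 for export and retrieval and 0.08 for translocation and glycosylation, and -0.03 for the 16 stress signalling genes. The extremes of the stress signalling list were Nfe2l2, the oxidative stress factor NRF2, at 0.684 (0.579 to 0.807) and Eif2s1 at 1.18 (1.03 to 1.36), and the early stress factor Atf3 was at 0.744 (0.636 to 0.868). Nfe2l2 and Bbc3, at 0.753, had GC contents of 65.7% and 65.2%, above every member of the set. Xbp1 itself was at 1.12 (0.975 to 1.28). In translocation and glycosylation the highest was Dad1, of the oligosaccharyltransferase, at 1.37 (1.17 to 1.61), in export Tmed10 at 1.35 (1.15 to 1.58) with Lman2 lowest at 0.958, in folding Dnajc10 at 1.23 with Fkbp11 lowest at 0.843, and in degradation Ufd1l at 1.25 with Vcp lowest at 0.896. Pdia5 held 3 and 3 reads and was not compared.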

How the data were processed

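H3K4 ChIP-seq of native, MNase-digested chromatin was analysed in 1 PA1-knockout and 1 wild-type library. The deposited files give the authors' mapped reads, 1 line per read with its position and strand, and no value per gene. The submitters' processing notes name mm9 and SICER, without roles. For the aligner: not given in the sources used here. Reads all spanned 25 bases and no position and strand occurred more than 1 time, so repeated reads were absent before deposit. The mismatch letters of the reads equalled the NCBIM37 base in 100% of single-mismatch reads on chromosome 19 when positions were read as 1-based.

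The 5′ ends were moved 75 bp into the fragment, and reads were counted within 1 kb of the TSS with most reads of each protein-coding gene. Promoters with at least 50 reads were scaled by TMM (trims of 30% and 5%), and ratios were given exact conditional binomial (Clopper-Pearson) 95% intervals. Since amplified reads carry no molecular identifiers, these intervals cover counting error only. Those of the flank contrast used a normal approximation on the log scale. Log2 ratios add 0.5 to each count. Trends over level and GC were removed with lowess (statsmodels 0.14.6, span 30%). Islands for the background scale joined 200 bp windows (Poisson probability under 1e-05) over gaps up to 200 bp and held at least 20 reads. The call rule was tested on simulated data. Named by rule were, for each role, the genes with the most and fewest reads and the highest and lowest ratio, those nearest the threshold, and every gene called. Other members, such as Eif2ak3, Syvn1 and Srp72, were named for their roles after their values were seen. Sequences shown are those with the ERSE and the highest and lowest ratio without it. The members, lists and rules were chosen with earlier results of these data known. Of the listed wider pathway genes, Mzb1, Sels and Sec12 did not match the annotation.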

Additional observations from a re-analysis of the deposited data

How the results depend on the processing

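No paired analysis was possible because each genotype has 1 library. No member was called higher or lower in any of the 11 other settings. The members' median log2 ratio minus that of all promoters was 0.15. Total-read and background scaling cannot move it, because a library factor cancels in this difference. It stayed within 0.03 of 0.15 with no fragment shift, either other minimum, the most upstream TSS or the GC trend removed. It was 0.057 with windows of 500 bp and 0.22 with windows of 2 kb. Removing the level trend gave 0.073 and removing both trends 0.093. Of the 41 single ratios, 38 left their own interval with background scaling, 10 with a 500 bp window, 3 with both trends removed and 1 with the GC trend removed. Of the 92 wider pathway genes, 1 was lower (Sec62), but 2 with total-read scaling and 5 with background scaling. Of all promoters, 4.9% were lower with TMM scaling, 7.78% with total-read scaling and 16.7% with background scaling. Of the wider pathway genes, 0 were lower with a 2 kb window, a minimum of 20 reads, the most upstream TSS, or the GC trend or both trends removed. With a 500 bp window Stt3b alone was lower, and with the level trend removed Nfe2l2 alone. For the flanks against the core, the settings were chosen after seeing the data. The members' median was 0.70, but 0.81 with a core of 200 bp and 0.54 with a core of 500 bp, against 0.34, 0.33 and 0.29 for all promoters. The interval lay above 0 for 23 of 38 members, 17 of 27 with the smaller core, 21 of 40 with the larger, 18 of 39 with flanks nearer the core (ending at 1000 bp) and 20 of 36 with no shift, against 19.8 to 24.8% of all promoters. The cause of these shifts was not tested. Members' cores held a median of 130.5 reads, which limits single core ratios more than whole promoters.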

Other observations

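Of the 14 promoters that held the full ERSE, 7 belonged to genes outside the set. Of these, Alg12 and BC030307 share a divergent promoter with Creld2 and Hsp90b1, so the same elements were read from the other direction. Ero1lb, an ER oxidase of the wider folding list, held it at bases -201 to -183, with 318 reads in PA1-KO and 374 in PA1-WT (ratio 0.970, interval 0.833 to 1.13). The remaining 4 were the adenylyl cyclase Adcy3, the messenger RNA decapping factor Edc4, the ribonucleoprotein Hnrnpa3 and the deadenylase subunit Pan2. Adcy3 had the lowest ratio of all 14, 0.680 (0.507 to 0.906) on 78 and 131 reads, and the other 3 lay between 1.04 and 1.06. The 7 holders outside the set had a median ratio of 1.04, and the 7 members with the element 1.07.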
